A study of Mus musculus with 8 samples.

Results

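The genes described here are 47 transcription factor genes of embryonic patterning: Pax genes and homeobox genes outside the Hox clusters. They were chosen as a named list by gene family, with earlier results of these data known, and are grouped by family into Pax (7 genes), Nkx (6), Lhx (5), Dlx (4), Irx (4), the relatives Six2, Six3 and Six6 (3), Isl and Lmx (3), Otx, Pitx and Gsc (4), Gbx, Msx, Barx, En and Evx (8) and Pou (3). All 47 were found among the 18603 promoter windows of the H3K27me3 ChIP-seq files and among the 22410 genes of the RNA-seq files. Both assays were made on naive CD4+ T cells from lymph nodes of 129SV/B6 mice. The 4 genotypes were wild type (WT), Ezh1 -/- (called Ezh1 KO), a floxed Ezh2 (Ezh2 fl/fl) plus CD4-cre, also labelled Ezh2-/- (called Ezh2 KO), and both alterations combined, Ezh1 -/- Ezh2 fl/fl CD4-cre (double KO). The animals' ages and the number pooled per library are not given in the sources used here. CD4-cre, a recombinase under Cd4 regulatory sequence, acts from the stage of thymic development at which that sequence becomes active, whereas the Ezh1 -/- genotype carries no such restriction to T cells. Each genotype has 1 ChIP-seq and 1 RNA-seq library, so no value has an SD between replicates and no comparison between genotypes a test, and "higher" or "lower" compares 1 library with 1 library.

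H3K27me3 is trimethylation of lysine 27 of histone H3, the mark of gene repression laid down by Polycomb repressive complex PRC2, whose catalytic subunit is either Ezh2 or its paralog Ezh1. Homeobox proteins bind DNA through a homeodomain and Pax proteins through a paired domain, and in the embryo their combinations set the identity of body regions, organs and neuron types. Outside those tissues their CpG-rich promoters are known as typical Polycomb targets, and most of these genes are known for roles outside lymphocytes.

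Sets of 4 values in the text give WT first, then the Ezh1 KO, then the Ezh2 KO, and the double KO last. The sequencing depth, worked out from the coverage that 1 read adds, was 79.7, 87.1, 78.2 and 88.2 M reads in the ChIP assay, while RNA libraries had 36.1, 70.4, 40.7 and 94.1 M reads. RNA of Ezh1, given as the mean over its 21 exons of the highest coverage per M reads, was 1.05, 0.196, 1.12 and 0.194, so it was low in both libraries labelled Ezh1 -/-. RNA of Ezh2 was 0.925, 0.913, 1.08 and 1.17, a value over the whole gene that does not check deletion of its floxed part. All 12 markers of naive CD4 T cells in the list used here were at 1 or more, with summed RNA of 258, 226, 227 and 226. The summed RNA of 10 B cell markers was 5.63, 7.52, 10.6 and 18.5. Of these 10 markers, the Ezh1 KO had 8 above WT and each of the other mutants had 10, and none was at 0. In such bulk libraries, a different number of cells of a type and a different amount of RNA per cell cannot be told apart. The summed RNA of 10 CD8 T and NK cell markers was 4.31, 3.41, 7.52 and 5.48, with 5, 7 and 6 of them above WT in the mutants. That of the 9 measured myeloid and dendritic cell markers was 0.697, 0.905, 0.936 and 1.54, with 4, 6 and 5 above WT. Without Lyz2, the most abundant, it was 0.422, 0.344, 0.360 and 0.353. That of 10 stromal and endothelial markers was 4.47, 4.35, 4.23 and 3.99, nearly all from Pecam1. The other 9 summed to 0.134, 0.190, 0.221 and 0.225, and of all 10 the mutants had 7, 9 and 9 above WT. The part of these other cells in the H3K27me3 and RNA values below was not tested.

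In the naive T cells the promoters of these genes carried H3K27me3 as a group. The deposited value is a sum of coverage, scaled per M reads, in 25 bp steps across 6 kb centred on the transcription start (the window), and a window is called marked here when its WT value was at least 40.6, which is 4 times the median of 7077 windows of genes that make up the third with the most WT RNA. In WT, 40 of the 47 genes (85.1%) were marked, against 12% of all windows. Among windows with signal, 78.6% of 84 other developmental homeobox genes and 86.7% of 30 Hox genes were marked too. Of the 7 genes of the list that were not marked, Isl1, Six2 and Six3 are listed at 0 in all 4 libraries, and Nkx6-2 (39.6), Irx5 (40.2), Irx2 (36.6) and Gbx2 (26.8) had signal under the threshold. The values of Isl1, Six2 and Six3 cannot be read as an absence of the mark. On chromosome 13 no window past position 114019116 (mm9) holds signal in any library, 17 of 17 windows, and Isl1 lies there, while on chromosome 17 the same is true of all 77 windows past 78422504, where Six2 and Six3 lie. For these 3 genes no H3K27me3 value is given in the following, which leaves 44.

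Because the promoters of these genes are rich in CpG, 4 stretches of 200 bases ending 10 bases upstream of the window centre are shown, read from the mm9 genome on the gene's own strand, 5′ to 3′, with each CpG dinucleotide (CG, which reads the same on both strands) in capitals. None overlaps an annotated exon. They were taken from the gene with the highest WT mark, which was no higher in the double KO (Lhx2, chr2:38194591-38194790, plus strand, 23 CpG), from the gene with the largest ratio to WT in the Ezh1 KO (Nkx6-2, chr7:146768707-146768906, minus strand, 23 CpG) and from the gene with the lowest ratio in the Ezh2 KO (Irx1, chr13:72101182-72101381, minus strand, 18 CpG). The remaining stretch has the most CpG among those of the 47 genes that are clear of exons (Pou4f1, chr14:104867227-104867426, minus strand, 37 CpG, 79% G or C).
Lhx2: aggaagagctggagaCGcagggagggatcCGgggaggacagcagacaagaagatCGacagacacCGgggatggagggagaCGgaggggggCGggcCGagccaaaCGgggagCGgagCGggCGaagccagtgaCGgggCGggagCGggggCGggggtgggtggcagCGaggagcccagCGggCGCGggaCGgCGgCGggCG
Nkx6-2: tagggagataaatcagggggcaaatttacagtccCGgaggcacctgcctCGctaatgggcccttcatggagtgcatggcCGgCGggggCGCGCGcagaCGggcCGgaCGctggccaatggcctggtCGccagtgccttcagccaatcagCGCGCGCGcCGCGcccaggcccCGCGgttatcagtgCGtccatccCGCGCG
Irx1: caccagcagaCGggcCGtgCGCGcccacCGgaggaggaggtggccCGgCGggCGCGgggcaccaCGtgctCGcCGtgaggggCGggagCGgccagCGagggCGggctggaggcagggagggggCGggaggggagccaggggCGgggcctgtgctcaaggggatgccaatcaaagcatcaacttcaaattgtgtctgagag
Pou4f1: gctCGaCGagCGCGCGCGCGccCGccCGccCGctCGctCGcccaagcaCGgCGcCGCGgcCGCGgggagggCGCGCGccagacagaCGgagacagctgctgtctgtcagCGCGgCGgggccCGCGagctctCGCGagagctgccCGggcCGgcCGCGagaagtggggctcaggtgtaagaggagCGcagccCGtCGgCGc

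The family of Pax genes had the highest WT level of any family with more than 1 gene, with a median of 69.2 over 7 windows. Pax6, the factor of eye and forebrain development, had 73.8, 98.5, 74.9 and 92.0. Pax1 and Pax9, close paralogs that act in the sclerotome and pharyngeal pouches, were at 70.9 and 70.5 in WT and at 88.1 and 92.6 in the Ezh1 KO. Pax3 and Pax7, the paralogs of neural crest and muscle progenitors, differed in how the double KO stood: Pax3 had 69.2, 90.9, 63.5 and 91.3, so the double KO was level with the Ezh1 KO, and Pax7 had 50.2, 80.2, 50.4 and 66.5, so it lay between the Ezh1 KO and the other libraries. Pax2 and Pax8, paralogs of kidney development, stood furthest apart in the family. Pax2 had 40.8, 67.8, 41.9 and 64.2, and Pax8 had 65.5, 79.7, 56.4 and 71.6. The ratio of Pax8 to Pax2 was 1.61 for WT but 1.12 for the double KO, a smaller gap.

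**Figure D1:**
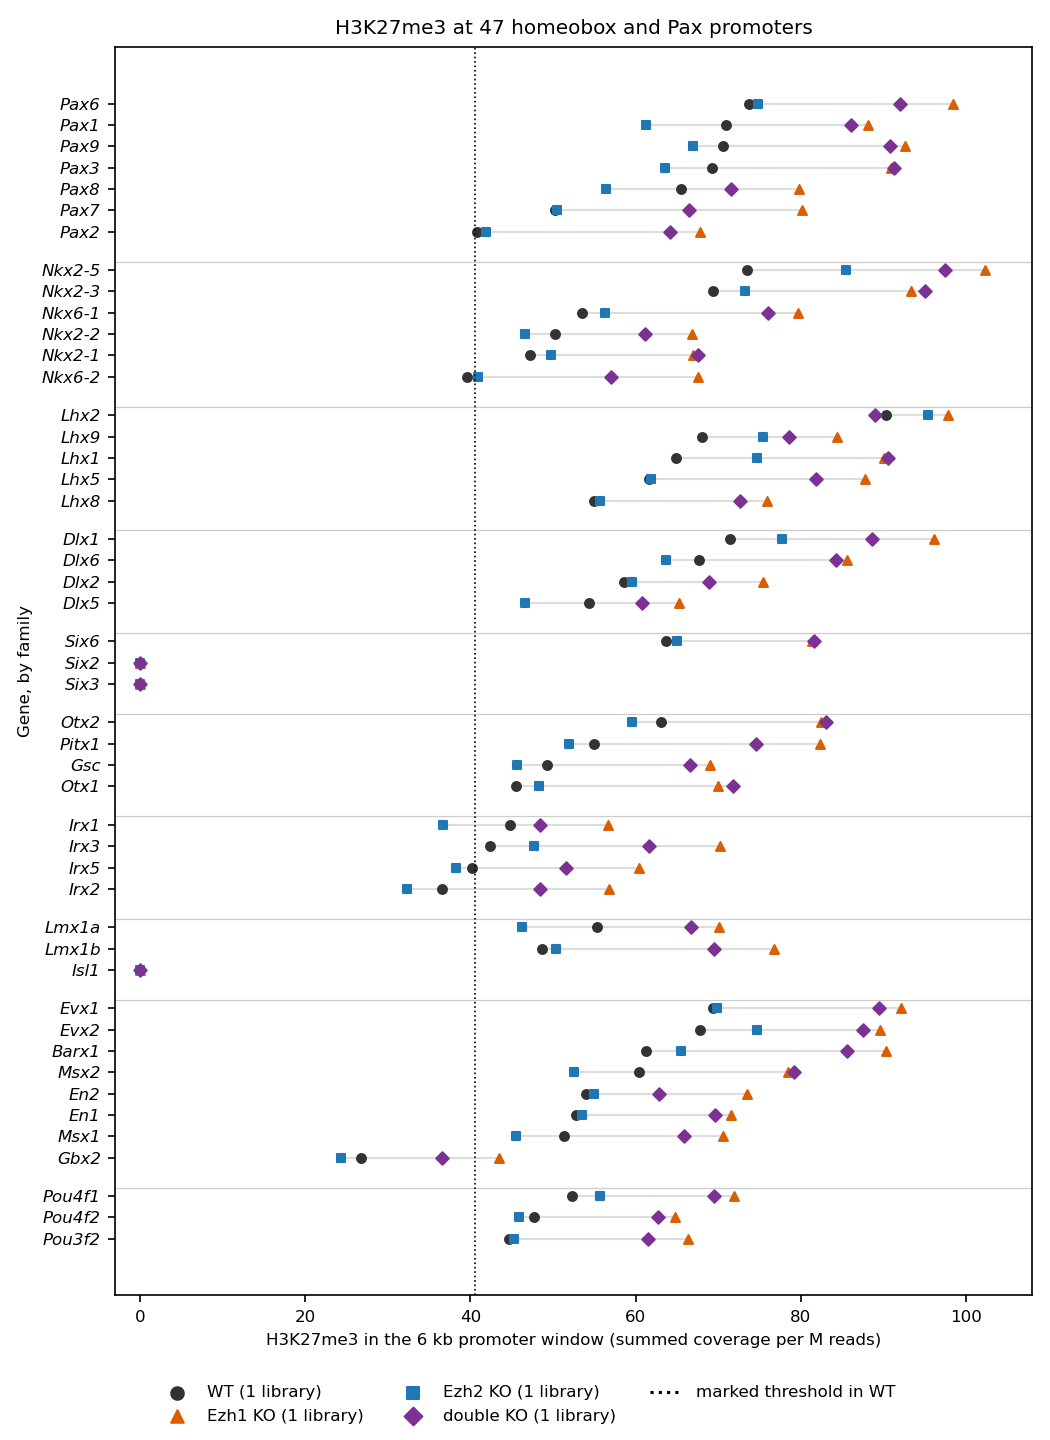
H3K27me3 per M reads (horizontal axis, summed coverage in the 6 kb window) for each of the 47 genes, grouped by family and ordered within it by WT level, with 1 point per library and a dotted line at the marked threshold of 40.6. In 43 of the 44 genes with signal the Ezh1 KO and double KO points lie to the right of the WT and Ezh2 KO points, and Isl1, Six2 and Six3 are listed at 0; with the marked windows of the libraries set equal this order holds at 24 of 44.

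Among the 6 Nkx genes, whose WT median was 51.9, levels were widely spread. Nkx2-5, a regulator of the early heart, had 73.5, 102, 85.4 and 97.5, the highest value of any of the 44 genes in both genotypes without Ezh1. Nkx2-3, which patterns gut and spleen vessels, was near it with 69.3, 93.3, 73.2 and 95.1. Nkx2-1, the factor of thyroid, lung and ventral forebrain, had 47.2, 66.9, 49.7 and 67.6, and Nkx2-2, of the ventral spinal cord and pancreas, had 50.3, 66.9, 46.6 and 61.2. Nkx6-1 and Nkx6-2, paralogs that act in motor neuron progenitors, had 53.5 and 39.6 in WT and 79.7 and 67.5 in the Ezh1 KO. Nkx6-2 was under the marked threshold in WT and over it in the other 3 libraries (67.5, 40.9 and 57.0).

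The LIM homeobox genes Lhx1, Lhx2, Lhx5, Lhx8 and Lhx9, which specify neurons, limb and gonad, had a WT median of 64.8. Lhx2, needed for forebrain and eye, had the highest WT level of the 44 genes and the narrowest range, 90.3, 97.9, 95.4 and 88.9. It was the only one of the 44 in which the double KO was the lowest library. Lhx9, its paralog, had 68.1, 84.4, 75.4 and 78.6, so both genes had less difference between the double KO and the Ezh2 KO than any other of the 44. Lhx1, of head organizer and kidney, had 64.8, 90.0, 74.7 and 90.6, and Lhx5 and Lhx8, genes of forebrain neurons, had 61.6 and 54.9 in WT. In the related LIM genes Lmx1a and Lmx1b, of midbrain dopamine neurons and dorsal limb, values were 55.3, 70.1, 46.3 and 66.7 for Lmx1a and 48.6, 76.7, 50.3 and 69.5 for Lmx1b, so Lmx1b was below Lmx1a in WT and above it in each mutant.

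Dlx genes lie as convergent neighbours and act in ventral forebrain, jaw and limb; their 4 windows had a WT median of 63.1. Dlx1 had 71.5, 96.2, 77.8 and 88.6 and Dlx2, with its window centre 18009 bp away, had 58.5, 75.4, 59.5 and 68.9. Dlx5 had 54.3, 65.3, 46.6 and 60.8 and Dlx6, 18734 bp away, had 67.7, 85.6, 63.7 and 84.3. The ratio of Dlx2 to Dlx1 stayed between 0.765 and 0.819 in the 4 libraries and that of Dlx6 to Dlx5 between 1.25 and 1.39. The windows of neighbours do not overlap, but a broad domain can cover both, so neighbours are not independent measurements. Six6, an eye and pituitary gene and the only gene of its family with signal, had 63.6, 81.4, 65.0 and 81.6.

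The Irx genes, which pattern heart, limb and neural tube, had the lowest WT median of any family, 41.3, and 2 of the 4 were marked. Irx1 had 44.8, 56.7, 36.7 and 48.4 and Irx2, 665097 bp away, had 36.6, 56.8, 32.3 and 48.4, so the pair differed in WT and was level in both libraries without Ezh1. Irx3 had 42.4, 70.2, 47.7 and 61.6 and Irx5, in the other Irx cluster, had 40.2, 60.4, 38.2 and 51.6. In all 4 Irx genes the double KO lay between the Ezh1 KO and the 2 libraries with intact Ezh1.

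Of the head and axis genes, Otx1 had 45.5, 69.9, 48.3 and 71.8 and Otx2, the forebrain and midbrain determinant, had 63.1, 82.4, 59.6 and 83.0, so in this pair the double KO was the highest library, by log2 ratios over the Ezh1 KO of only 0.04 and 0.01. Pitx1, of hindlimb and pituitary, had 54.9, 82.3, 52.0 and 74.6, and Gsc, the gene of the gastrula organizer, had 49.3, 69.0, 45.6 and 66.6. The group of Gbx, Msx, Barx, En and Evx genes had a WT median of 57.2. In it Evx1 (69.4, 92.2, 69.9 and 89.5) and Evx2 (67.7, 89.6, 74.6 and 87.6), which adjoin the HoxA and HoxD clusters, had nearly the same level in every library, with ratios of Evx2 to Evx1 between 0.972 and 1.07. The centre of the Evx2 window is 8753 bp from that of Hoxd13. Gbx2, of the midbrain-hindbrain boundary, had 26.8, 43.5, 24.3 and 36.6, the lowest of the 44 in every library, and the centre of its deposited window lies 2114 bp from the nearest annotated start in the annotation used here. The other 5 of the group, Msx1, Msx2, En1, En2 and Barx1, had between 51.3 and 61.3 in WT. The Pou genes of sensory neurons, Pou4f1 (52.2, 72.0, 55.7 and 69.5) and Pou4f2 (47.7, 64.8, 45.9 and 62.7), and Pou3f2 (44.7, 66.4, 45.3 and 61.5), a neural progenitor factor, had a median of 47.7 in WT.

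Within WT these genes ranked among the more strongly marked promoters. Their values ran from 26.8 to 90.3 with a median of 54.9 and a coefficient of variation of 21.9%. The median of 84 other developmental homeobox genes with signal was 55.0 and that of 30 Hox windows with signal was 68.6. The median of all marked windows was 51.5, and that of all 17988 windows that entered the comparisons was 13.9. Over the background windows of each library, the median of the 44 genes stood 5.42, 7.90, 4.99 and 6.89 times higher, and that of all marked windows 5.08, 6.54, 4.29 and 5.47 times. The highest bin was 2.28, 2.06, 2.45 and 2.19 times the mean bin at the median gene, against 2.28, 2.22, 2.49 and 2.30 times at the median of marked windows and 2.96, 2.98, 3.01 and 2.91 times at the median of all windows. This ratio also depends on how many reads a window holds. In WT the median was worth 725 reads at the 44 genes and 179 over all windows. The part of read number was not separated from the shape of the signal.

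In the Ezh1 KO library the mark at these promoters was higher than in WT at every gene with a value. The median log2 ratio of the 44 genes was 0.44, a factor of 1.35, against 0.39 for the other developmental homeobox genes, 0.33 for Hox genes, 0.29 for the remaining marked windows and 0.09 for all windows. Marked windows were chosen by a high WT value, the divisor here, so their ratios to WT can be lowered by that choice. The 44 genes came from a list by gene family. The ratio was above 0 at 44 of 44 genes, against 64.2% of all windows. It was above 0 at 97.6% of the other developmental homeobox genes, 96.7% of Hox genes and 92.6% of the remaining marked windows. Its counting interval of 95%, which covers counting error only, lay above 0 at 44 of 44, against 29.1% of all windows. For the other developmental homeobox genes, Hox genes and remaining marked windows these shares were 91.7%, 86.7% and 77.2%. A difference of at least 1.5-fold was reached by 8 of the 44, against 1.93% of all windows, namely Nkx6-2, Pax2, Irx3, Gbx2, Pax7, Lmx1b, Irx2 and Otx1, and no gene was 1.5-fold lower, against 0.256%. At least 1.5-fold higher were 13.1% of the other developmental homeobox genes, 3.33% of Hox genes and 4.06% of the remaining marked windows. The count of 8 was 3 with TMM factors, 13 with the background windows set equal and 0 with the marked windows set equal. The largest log2 ratios were those of Nkx6-2 (0.76, counting interval 0.62 to 0.93), Pax2 (0.72, 0.58 to 0.89) and Irx3 (0.72, 0.58 to 0.88), and the smallest were those of Lhx2 (0.11, 0.0025 to 0.23), Dlx5 (0.26) and Pax8 (0.28). The counting intervals of Lhx2 and of the largest 3 do not overlap, but these genes were picked as the extremes of these same ratios. With counting error only, this does not test a difference between genes. With the marked windows of both libraries set equal, the ratio was above 0 at 39 of 44 genes with a median of 0.12, against -0.20 for all windows.

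In the Ezh2 KO library these promoters had a level near that of WT. The median log2 ratio to WT was 0.02, against -0.12 for the remaining marked windows and -0.01 for all windows. Of the 44 genes, 26 were above WT and 18 below, against 48.5% of all windows above, and this split turned to 34 above with the marked windows set equal and to 5 above with the background windows set equal. The counting interval lay above 0 at 5 genes, against 8.36% of all windows, and below 0 at 7, against 15.8%. No gene differed by 1.5-fold in either direction, against 0.606% of all windows higher and 0.795% lower. The largest ratios were those of Nkx2-5 (0.21), Lhx1 (0.20) and Irx3 (0.17), and the smallest those of Irx1 (-0.28), Lmx1a (-0.25) and Dlx5 (-0.22). By family, the 5 Lhx genes were all above WT, at 0.01 to 0.20, while 4 of the 7 Pax genes and 3 of the 4 Irx genes were below it. With the background windows set equal, each of these ratios would be about 0.13 lower.

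The double KO library, from cells with both enzymes targeted, still held H3K27me3 at these promoters at a level above WT. The median of the 44 genes was 71.7, against 54.9 in WT. The median log2 ratio was 0.39, a factor of 1.31, against 0.30 for the other developmental homeobox genes, 0.27 for Hox genes, 0.12 for the remaining marked windows and 0.05 for all windows. Of the 44 genes, 43 were above WT, against 59.6% of all windows, and the counting interval lay above 0 at 41, against 18.5%. Above WT were 79 of 84 other developmental homeobox genes, 27 of 30 Hox genes and 1603 of 2191 remaining marked windows. Their counting intervals lay above 0 at 65, 22 and 972. Only Otx1 (0.65) and Pax2 (0.64) reached 1.5-fold, 2 of 44 against 1.15% of all windows, none was 1.5-fold lower, against 1.48%, and the next largest ratio was that of Irx3 (0.53). The smallest ratios were those of Lhx2 (-0.02), Irx1 (0.11) and Pax8 (0.13). With the marked windows set equal, 41 of 44 were above WT, 0 by 1.5-fold, and the median was 0.25, against -0.08 for all windows. All 3 of these comparisons use the same WT library, so a deviation of that library enters each of them. The choice of marked windows by WT value also enters the ratios of these windows to WT and the scaling that sets them equal. The size of that effect was not measured.

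**Figure D2:**
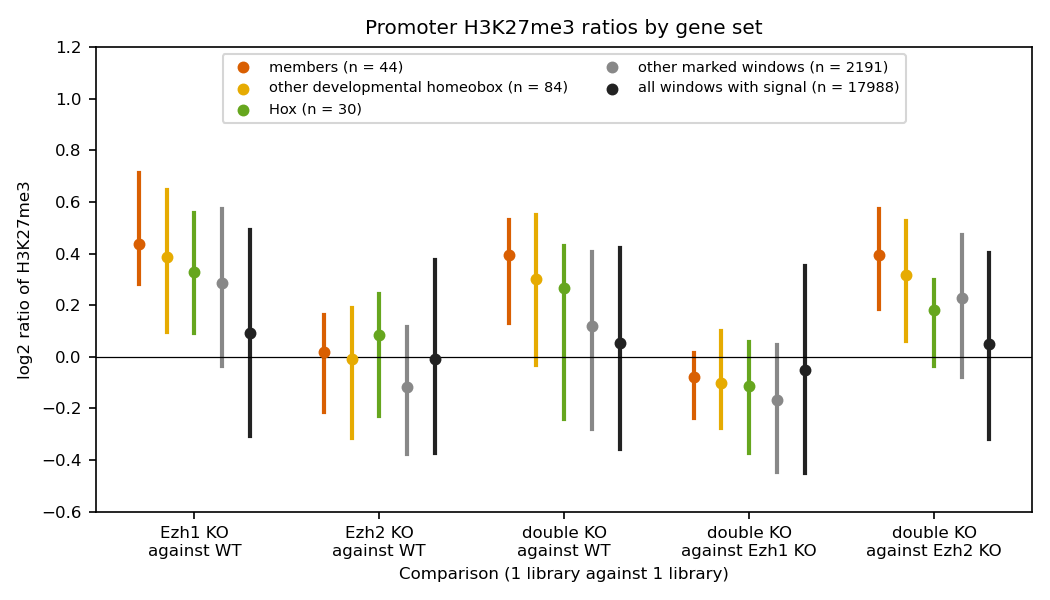
Log2 ratio of H3K27me3 (vertical axis) in 5 comparisons of 1 library with 1 library, with the median as a point and the 5th to 95th percentile of windows as a line, for the 44 genes, other developmental homeobox genes, Hox genes, other marked windows and all windows. The medians of the 44 genes were 0.44, 0.02, 0.39, -0.08 and 0.39 from left to right, and 0.09, -0.01, 0.05, -0.05 and 0.05 for all windows; the signs of 0.02 and -0.08 change with the scaling.

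A comparison that leaves WT out gave a similar value for Ezh1. The double KO differs from the Ezh2 KO by the Ezh1 genotype, and here the median log2 ratio of the 44 genes was again 0.39, against 0.32 for the other developmental homeobox genes, 0.18 for Hox genes, 0.23 for the remaining marked windows and 0.05 for all windows. Of the 44, 43 were above 0, against 58.1% of all windows, with the counting interval above 0 at 42, against 21.9%. Above 0 were 97.6% of the other developmental homeobox genes, 86.7% of Hox genes and 91.1% of the remaining marked windows. Their counting intervals lay above 0 at 85.7%, 56.7% and 70.1%. Pax2 had the largest ratio, 0.60, and was the only gene to reach 1.5-fold, against 0.534% of all windows, none was 1.5-fold lower, against 0.289%, while Lhx2 was the exception with -0.10. With the marked windows set equal, 37 of 44 were above 0, none by 1.5-fold, and the median was 0.14, while 10 genes reached 1.5-fold with the background windows set equal. Across the 44 genes the ratios of Ezh1 KO to WT and of double KO to Ezh2 KO, which share no library, had a Pearson correlation of 0.51 and a Spearman correlation of 0.37, and across the 2191 remaining marked windows 0.58 and 0.51. These are descriptions over genes, which are not replicates and which share CpG content and library depth.

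**Figure D3:**
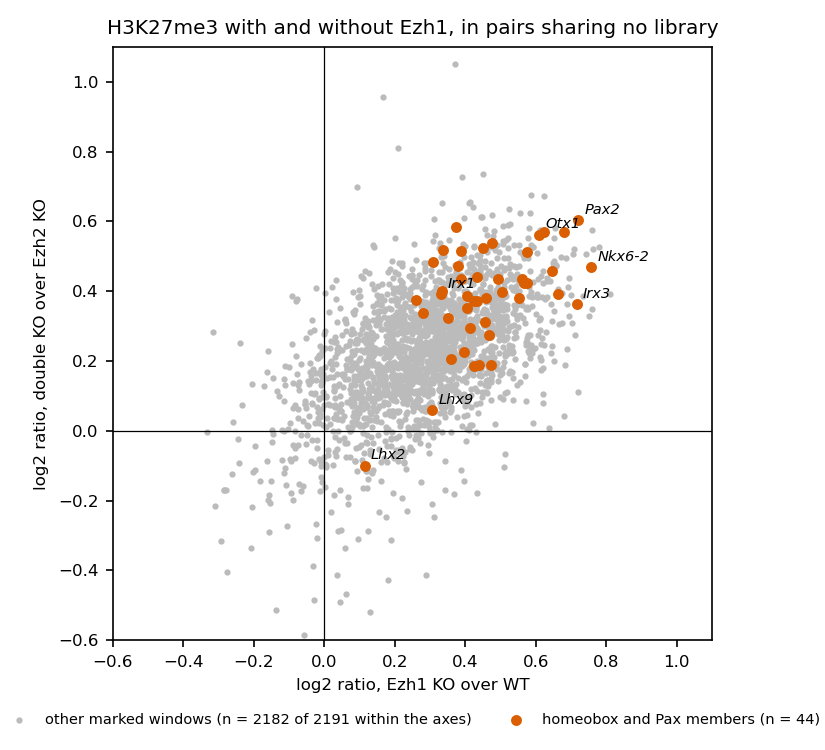
Log2 ratio of H3K27me3 of Ezh1 KO over WT (horizontal axis) and of double KO over Ezh2 KO (vertical axis), comparisons without a shared library, for the 44 genes (orange) and other marked windows (grey, those within the axes). All orange points but Lhx2 lie above 0 on both axes per M reads, with Pax2 at 0.72 and 0.60 and Lhx2 at 0.11 and -0.10; with marked windows set equal, 39 of 44 lie above 0 on the horizontal and 37 of 44 on the vertical axis.

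Between the double KO and the Ezh1 KO, which differ by the Ezh2 genotype, the values were close. The median log2 ratio was -0.08, against -0.17 for the remaining marked windows and -0.05 for all windows. The double KO was below the Ezh1 KO at 36 of 44 genes, against 58% of all windows, yet above it at 36 of 44 once the marked windows were set equal, and below it at all 44 with the background windows set equal. The counting interval lay below 0 at 14 genes, against 24.9% of all windows, and above 0 at none, against 7.15%. No gene differed by 1.5-fold, against 2.18% of all windows lower and 0.372% higher. Pax7 (-0.27), Nkx6-2 (-0.24) and all 4 Irx genes (-0.19 to -0.23) lay toward the low end, and Otx1 (0.04) and Nkx2-3 (0.03) were among the 8 genes above 0.

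Per M reads, the order of the 4 libraries was nearly the same from gene to gene. Both libraries without Ezh1 were above both others at 43 of the 44 genes (97.7%), against 31.5% of all windows, 71.2% of marked windows, 90.5% of the 84 other developmental homeobox genes and 80% of the Hox genes. It was 43 of 44 also with TMM factors and with the background windows set equal, but 24 of 44 with the marked windows set equal. Both Ezh2-deleted libraries were above both others at 0 of 44, against 3524 of all 17988 windows and 16 of 2231 marked windows. The highest library was the Ezh1 KO at 36 genes and the double KO at 8, and the lowest was WT at 25, the Ezh2 KO at 18 and the double KO at 1, Lhx2. Over all 17988 windows the Ezh1 KO was highest at 7694 and the double KO at 3438. There WT was lowest at 4679, the Ezh2 KO at 6289 and the double KO at 2992. Over the 2231 marked windows, chosen by a high WT value, the Ezh1 KO was highest at 1902. Among these, the Ezh2 KO was lowest at 1632 and WT at 411.

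The genes with the least mark in WT had the larger ratios in the comparison without WT. The correlation of the WT level with the log2 ratio of double KO to Ezh2 KO was -0.59 (Pearson) and -0.54 (Spearman) over the 44 genes, and -0.15 and -0.15 over the remaining marked windows. The spread relative to the mean was smaller in the Ezh1 KO, where the coefficient of variation over the 44 genes was 16.5%, against 21.9% in WT. The Ezh2 KO had 25.5% and the double KO 19.2%. The level itself was higher in the Ezh1 KO, with a median of 77.6 against 54.9 in WT. A smaller relative spread is therefore not a smaller distance between genes in absolute value.

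CpG content, which the choice of genes did not use, was high at these promoters, and among the 44 genes the level was lower where CpG density was higher. The 44 windows held a median of 248 CpG dinucleotides, from 117 in Pax1 to 439 in Irx5. Per 100 bp the median was 4.13, with a range of 1.95 to 7.32, against medians of 3.26 in the other developmental homeobox genes, 3.19 in Hox windows, 2.52 in marked windows and 1.97 in all windows, each of which held at least 8 CpG. Over the 44 genes CpG density and WT level had a Pearson correlation of -0.65 and a Spearman correlation of -0.66, and windows dense in CpG, such as those of Irx5, Nkx6-2 and Irx3, tended to have less mark. The Pearson values in the other libraries were -0.48, -0.48 and -0.49. Over the remaining marked windows they were 0.05, 0.26, 0.19 and 0.29. The log2 ratio of the Ezh1 KO to WT had a Pearson correlation of 0.70 with CpG density over the 44 genes, against 0.34 over the remaining marked windows and 0.09 over 6889 background windows. For the double KO against the Ezh2 KO it was 0.26, against 0.21 and 0.09. For the double KO against the Ezh1 KO it had the opposite sign, -0.31, against 0.15 over the remaining marked windows. The highest value after that of the Ezh1 KO was 0.53, for the double KO against WT, which shares the WT library, while that for the Ezh2 KO against WT was 0.26. The median GC content of the 44 windows was 54.0%, against 47.4% for all windows, and its part in these values was not tested.

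**Figure D4:**
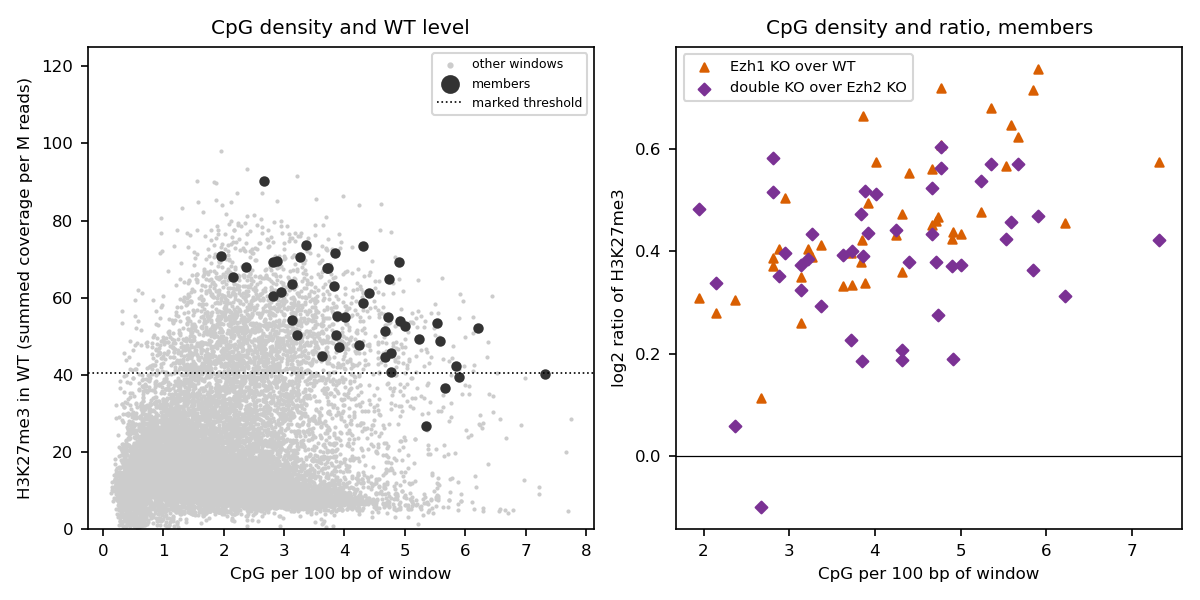
Left, CpG per 100 bp of the 6 kb window against WT H3K27me3 per M reads for the 44 genes (black) and other windows (grey; a few above the axis are not drawn), with the marked threshold of 40.6 as a dotted line; right, CpG per 100 bp against the log2 ratio of H3K27me3 for the 44 genes, as triangles for Ezh1 KO over WT and diamonds for double KO over Ezh2 KO. The black points fall from upper left to lower right (Pearson correlation -0.65), and the triangles rise more steeply with CpG density (0.70) than the diamonds (0.26).

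Among CpG-rich promoters, the marked share went down with RNA. Among windows outside the list with at least as many CpG as the lower quartile of the 44 genes, 62.9% of 692 were marked where WT RNA was under 0.05, 11.4% of 657 at 0.05 to 1 and 1.09% of 736 at 1 or more. Below that CpG count the shares were 20.8% of 6753, 4.62% of 5005 and 0.902% of 3991.

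Transcripts of these genes were close to undetectable in all 4 RNA libraries. No gene of the 47 reached a value of 1 in any library, against 22.8% of all genes in WT, so none had the level set as the minimum for a ratio. For the whole table, 0.154% of the genes over that minimum were at least 2-fold higher and 0.288% lower in the Ezh1 KO. The Ezh2 KO had 1.1% and 0.393%, and the double KO 1.07% and 0.169%. Counting the summed exon peaks as reads, the median gene of the list had 1, 2, 2 and 2 reads, and 41, 33, 34 and 33 of the 47 had no more than 3. The number listed at 0 was 20, 8, 10 and 8, and it was largest in the shallowest library. Nkx2-5, Six2, Gsc and Pou3f2 were listed at 0 in all 4, which at these depths does not show that they are silent. The summed RNA of the 47 genes was 0.413, 0.459, 0.807 and 0.429, and without Nkx2-1 0.293, 0.341, 0.545 and 0.330, so the Ezh2 KO was the highest either way. The median value of all genes was 0.0617, 0.0583, 0.0737 and 0.0638, also highest in the Ezh2 KO library.

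Only Nkx2-1 reached 0.1. Its values were 0.12, 0.118, 0.262 and 0.0992, from summed peaks of 13, 25, 32 and 28 reads. The median of its 3 exons was 0.0277, 0.0142, 0 and 0, so in both Ezh2-deleted libraries its signal came from 1 exon. In WT and the Ezh1 KO this median is the height of 1 read, so most of the signal came from 1 exon there as well. The promoter mark of Nkx2-1 in the Ezh2 KO, the library with the highest RNA value, was 49.7 against 47.2 in WT. Pax6 had the next highest number of reads, summed peaks of 7.2, 14.9, 10.3 and 30.0 over its 18 exons, or 0.0111, 0.0118, 0.0140 and 0.0177 per M reads on average.

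**Figure D5:**
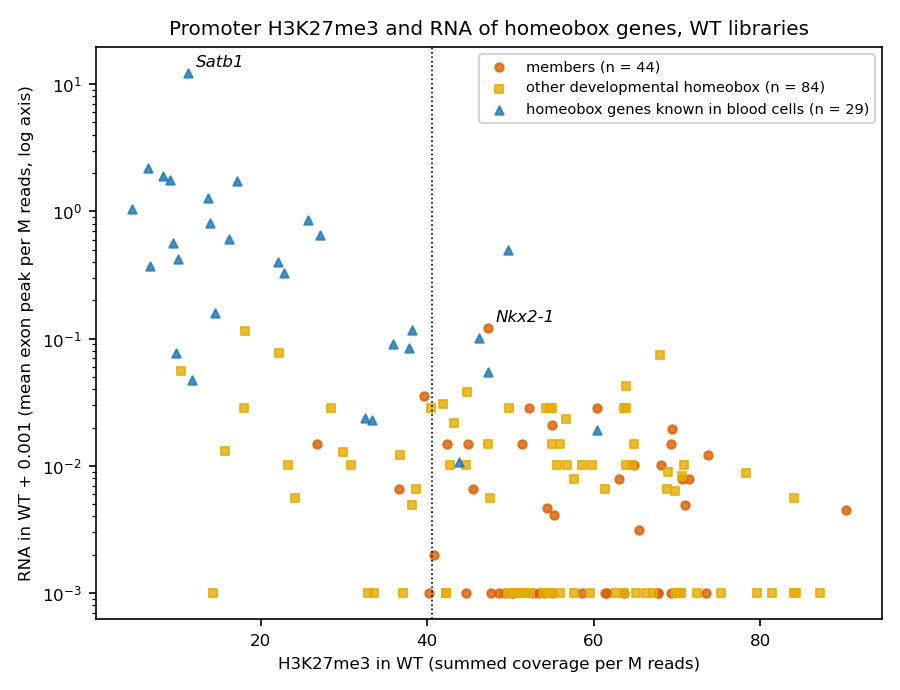
WT H3K27me3 of the promoter window (horizontal axis, summed coverage per M reads) against WT RNA (vertical axis, mean exon peak per M reads plus 0.001, log axis) for 44 genes of the list, 84 other developmental homeobox genes and 29 homeobox genes known in blood cells, with the marked threshold of 40.6 as a dotted line. Every gene of the list lies under 1 on the RNA axis, with Nkx2-1 the highest at 0.12, while Satb1 lies at 12.2 with an H3K27me3 value of 11.3.

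Homeobox genes known to work in blood cells were set beside the list. Of 30 such genes 7 (23.3%) were at 1 or more in WT RNA, against 22.8% of all genes. Their 29 windows with signal had a WT median of 17.2 in H3K27me3, against 13.9 for all windows. Of these 29, 5 (17.2%) were marked, against 12% of all windows. The 6 genes named next were picked for the highest WT RNA. Satb1, a chromatin organizer of T cells, had RNA of 12.2, 10.8, 10.3 and 12.1 and H3K27me3 of 11.3, 14.3, 12.7 and 15.4. The zinc finger homeobox genes Zeb1 and Zhx1 and the genes Adnp, Pknox1 and Cux1 had WT RNA of 1.75, 1.73, 2.18, 1.90 and 1.26, with WT H3K27me3 of 9.11, 17.2, 6.48, 8.26 and 13.7. The CpG content of the blood group (median 213 per window) was near that of the developmental genes, at 248. Of the other developmental homeobox genes, 0 of 84 reached 1 in RNA in any library, as in the list.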

How the data were processed

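H3K27me3 ChIP-seq and RNA-seq of naive CD4+ T cells were analysed, 1 library for each of 4 genotypes and assay. The deposited ChIP values are a signal that the authors computed, per the file headers an area and a peak around each transcription start. From the values, the area adds up 240 bins of 25 bp of coverage per M reads, reads being extended to 151 bp. For RNA the deposited coverage is, per the file headers, the mean and median over exons of the exon's peak, and another deposited number is that of exons per gene. How these columns were made, and any input subtraction, is not given in the sources used here. Per the labels, reads were placed on mm9, and only those with 1 location and at most 2 errors were kept. The submitters' processing notes name Bowtie 0.12.7, bcl2fastq, Cufflinks and Cuffdiff.

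The design planned exact counting intervals only if reads could be recovered. The height of 1 read gave the depth, and a window's area divided by what 1 read adds gave its read equivalents, a median of 725, 1119, 716 and 1047 over the 44 genes (WT, Ezh1 KO, Ezh2 KO, double KO). Intervals of 95% (Clopper-Pearson) on a ratio reflect counting error alone, and PCR copies without molecular identifiers make it an underestimate. Ratios are log2, with 1 added to ChIP values and 0.1 to RNA values as pseudocounts, for features at 1 or more in the higher library. No spike-in was used here, so differences are relative. No p was computed. CpG counts and sequences come from the mm9 genome.

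The genes and comparison lists (86 other developmental homeobox genes, of which 84 were measured, 30 blood-expressed ones and the cell markers) were chosen with earlier results of these data known. Named by rule were the 4 highest and 4 lowest genes in WT and the 3 largest and 3 smallest ratios per mutant. Genes under the marked threshold or at 0, pairs or trios per family and genes at 0.1 or more in RNA were also named. Of other homeobox genes, the 4 with the largest absolute double KO ratio and the 6 with the highest RNA were named. Not all of these genes are given with the values of every library. Other genes of the list were added so that each is accounted for. The calculation was tested on simulated data. Python 3.11.15, numpy 2.4.6, pandas 2.3.3 and scipy 1.17.1 were used.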

Additional observations from a re-analysis of the deposited data

Results flagged for a closer look

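Per M reads, Irx3 differed in opposite directions with Ezh2 deletion in the presence and in the absence of Ezh1. Its log2 ratio of H3K27me3 was 0.17 in the Ezh2 KO against WT and -0.19 in the double KO against the Ezh1 KO, from H3K27me3 values of 42.4 (WT) and 47.7 (Ezh2 KO) and of 70.2 (Ezh1 KO) and 61.6 (double KO). It was singled out as the only gene of the 44 in which the counting intervals of these ratios lie on opposite sides of 0. They were 0.0012 to 0.34 against WT, barely above 0, and -0.32 to -0.057 against the Ezh1 KO, and cover counting error only. The signs stayed opposite under the 3 other scalings run, but the ratio against WT was 0.042 with the background windows set equal, and that against the Ezh1 KO was -0.014 with the marked windows set equal. The difference was not tested, since each ratio rests on 1 library against 1 library.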

How the results depend on the processing

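Of the values recomputed under alternatives, 142 were close to the reported value and 23 were not. Many of the 142 are counts of genes that were 0 as reported and stayed at 0, among them all counts of genes 1.5-fold lower and all RNA counts. The total of 142 is therefore not a measure of how stable the results are. Setting the marked windows of the libraries equal gave a median log2 ratio of 0.12 for the Ezh1 KO against WT, 0.25 for the double KO against WT, 0.094 for the double KO against the Ezh1 KO, a change of sign, and 0.14 for the double KO against the Ezh2 KO, the last being 0.23 with the highest bin in place of the area. The number of genes at least 1.5-fold higher in the Ezh1 KO than in WT, 8 as reported, was 3 with TMM factors, with the median of ratios and with a pseudocount of 10, 13 with background windows set equal, 0 with marked windows set equal and 4 with the highest bin. For the double KO against WT it was 0 with marked windows set equal and with a pseudocount of 10, and 5 with the highest bin. For the double KO against the Ezh2 KO it was 0 with TMM factors, the median of ratios, marked windows set equal and a pseudocount of 10, 10 with background windows set equal, and 3 with a pseudocount of 0.1 and with the highest bin. The order with both Ezh1-deleted libraries on top, at 43 of 44 genes as reported, held at 24 with marked windows set equal. The number of marked genes, 40, was 18 with a threshold of 6 times background and 20 with the median of all windows as background. The alternative of 39 genes centred within 100 bp of an annotated start was chosen after seeing the data. With an RNA minimum of 0.1 only Nkx2-1 passed, and it was not called 2-fold different. Its values of 0.12 in WT and 0.262 in the Ezh2 KO were compared after adding 0.1, which is near the size of the WT value. In the other RNA alternatives no gene of the list passed the minimum, so none could be called. No paired analysis was possible because each genotype has 1 library per assay and no replicate number, and for the same reason no library could be left out. Depth limits single genes to a counting interval of about 0.14 to either side of a log2 ratio. Causes of these shifts were not tested beyond what the scalings themselves set.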

Other observations

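The largest differences between the double KO and WT among other homeobox genes went in both directions. Zeb2, a zinc finger homeobox repressor, had H3K27me3 of 38.2, 36.6, 29.9 and 21.0 (WT first, double KO last, with the Ezh1 KO before the Ezh2 KO between them), a log2 ratio of -0.83 for the double KO against WT, and RNA of 0.116 in WT and 0.278 in the double KO. Tgif1, a corepressor in TGF-beta signalling, had H3K27me3 of 10.1, 9.90, 7.50 and 5.99, a ratio of -0.66, near the level of background windows. Meis3, a TALE homeobox gene, had 27.1, 35.9, 30.6 and 43.8, a ratio of 0.67, and Pou3f3, a neural Pou gene and paralog of Pou3f2, had 28.5, 48.6, 32.6 and 43.9, a ratio of 0.61. RNA of Tgif1 was 0.423, 0.404, 0.423 and 0.439, and that of Meis3 was 0.647, 0.449, 0.337 and 0.481. RNA of Pou3f3 was 0.0277, 0.0142, 0.0246 and 0.0106. All 4 genes were under the RNA minimum of 1 set for a ratio. All 4 were chosen by the size of the H3K27me3 ratio and were under the marked threshold in WT.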
